A study of Mus musculus with 2 samples.

Results

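The genes described here encode 6 receptors for pituitary and stress hormones: *Lhcgr* (luteinizing hormone), *Fshr* (follicle-stimulating hormone), *Crhr1* (corticotropin-releasing hormone), *Mc2r* (adrenocorticotropic hormone, ACTH), *Prlr* (prolactin) and *Ghr* (growth hormone). They were taken by symbol from the deposited feature table, where each matched 1 of 32285 gene rows. The study profiled whole testes of mouse embryos at E14.5, counted in days from conception. Their genotype combined *Nr5a1-cre* with *Rosa-tdTomato*, a reporter turned on where this Cre has acted. Nuclei were read by 10x snMultiome, which sequences RNA and transposase-accessible DNA (ATAC) of the same nucleus, giving 1 RNA and 1 ATAC library. All nuclei share this genotype and age, no other group or treatment was analysed here, and neither the labels nor the methods give how many embryos were pooled. No library was replicated, so no test between animals was possible, and each interval below is a 95% interval of counting error only.

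The pituitary hormones reach the gonad through surface receptors of a few kinds. LHCGR, FSHR, CRHR1 and MC2R are coupled to G proteins and signal mainly through Gs, adenylyl cyclase and cyclic AMP, which in steroid-making cells turns on cholesterol import and the first steps of steroid synthesis. PRLR and GHR are single-pass cytokine receptors that signal through JAK2 and STAT5. In adult testis LHCGR is the hallmark of Leydig cells and FSHR of Sertoli cells, whereas MC2R is best known from the adrenal cortex. Fetal Leydig cells of the mouse are known to respond to ACTH as well as to luteinizing hormone.

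Of 9833 deposited barcodes, 7668 passed the quality thresholds, and 7198 nuclei with 77.0 M RNA molecules (UMIs) and 38.2 M ATAC fragments were kept after removal of likely doublets. Clusters were made without the receptors, their pathway genes and their nearby peaks, and were named by markers, giving 12 classes of 45 to 2514 nuclei. Leydig-like nuclei (n = 788) carried 4704 CPM of summed Leydig markers, CPM being UMIs of a gene scaled to the class total as counts per 1000000, against 263 to 696 CPM in the other classes. Sertoli-like nuclei (n = 834) carried 613 CPM of Sertoli markers, against 230 CPM in germ-like nuclei, the next highest class. The class named progenitor-like (n = 763) is a cycling cluster of interstitial progenitors. The largest interstitial cluster (n = 2514) is called here by its leading gene, *Tacr3*. It had the highest progenitor marker score, with 3095 CPM, but a contractile marker, *Myh11*, was among its leading genes, so it was given no cell type name. After the removal, 3.10% to 36.5% of the nuclei of a class still exceeded the automatic threshold of the doublet caller, so levels are also given without those nuclei.

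*Lhcgr* was by far highest in Leydig-like nuclei. It was detected there at 1019 CPM (8887 UMIs, interval 998 to 1040) and in 95.2% of nuclei, and this class held 79.3% of all *Lhcgr* UMIs in the kept nuclei. The next class, pericyte-like nuclei, had 80.1 CPM, and the ratio of Leydig-like to pericyte-like was 12.7 (9.76 to 16.9). Relative to progenitor-like nuclei, at 17.8 CPM, the ratio was 57.2 (48.4 to 68.1), and relative to the *Tacr3*-led cluster, at 26.8 CPM, it was 38.0 (34.5 to 42.01). The ratio to progenitor-like nuclei was 20.3 with clusters from chromatin alone, 27.0 at resolution 0.6 and 28.6 with stricter quality filters. At resolution 0.6 the progenitor-like nuclei also included a large low-cycling cluster, described below.

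Outside the Leydig-like class, the order of *Lhcgr* levels was not stable. All kept nuclei gave 74.6 CPM in endothelial-like, 64.1 in erythroid-like, 45.1 in supporting-like, 42.9 in germ-like and 37.8 in Sertoli-like nuclei. Mesonephric mesenchyme-like nuclei had 23.3 CPM, immune-like 20.5 and surface epithelium-like 17.4. Among these neighbours in the order, only germ-like against Sertoli-like and Sertoli-like against the *Tacr3*-led cluster had intervals of the ratio above 1. Many of these UMIs came from a few nuclei: 52 of the 55 pericyte-like UMIs lay in 5 nuclei, and the 26 erythroid-like UMIs lay in 3, with 24 of them in a single nucleus. Without nuclei over the doublet threshold, the pericyte-like level was 8.08 CPM, the endothelial-like 11.3, the germ-like 7.41 and the Sertoli-like 8.25, while the Leydig-like level was 1169. The erythroid-like level went the other way, to 121 CPM from 25 UMIs, and was then second. The *Tacr3*-led cluster kept 26.7 CPM and progenitor-like nuclei 16.3. Per 100 UMIs of Leydig markers other than *Nr5a1*, the Leydig-like class had 23.6 *Lhcgr* UMIs and the other classes 6.59 to 18.7. These markers were at 4321 CPM in Leydig-like and 249 to 658 CPM in the other classes, and their part in the low *Lhcgr* levels was not tested. After thinning to 2000 UMIs per nucleus, which left out 75 shallower nuclei, 78.1% of Leydig-like nuclei had an *Lhcgr* UMI, against 3.09% of germ-like nuclei. Median depth was 9562 UMIs in the former and 15521 in the latter, and the unthinned germ-like share was 15.4%.

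*Fshr*, in contrast, was highest in Sertoli-like nuclei, the somatic cells of the cords that nurse the germ cells. It was detected there at 252 CPM (2496 UMIs, interval 242 to 262) and in 56.1% of nuclei, or 32.1% after thinning. Progenitor-like nuclei had 1.54 CPM from 12 UMIs, a ratio of 164 (93.6 to 318) that was 36.1 with clusters from chromatin alone. Leydig-like nuclei had 2.29 CPM and the *Tacr3*-led cluster 1.68 CPM, and neither differed from progenitor-like nuclei or from the other beyond counting error. Surface epithelium-like nuclei had 1.96 CPM, immune-like 1.46 and mesonephric mesenchyme-like 0.637, and in pericyte-like nuclei no UMI was found, with an interval up to 5.37 CPM.

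Endothelial-like nuclei were the next highest class for *Fshr*, with 52.4 CPM, and the ratio of Sertoli-like to endothelial-like was 4.81 (4.01 to 5.81). The 123 endothelial-like UMIs came from 13 nuclei, 87 of them from 5. Without nuclei over the doublet threshold this level was 24.6 CPM, the germ-like level went from 19.5 to 0.995 CPM and the Sertoli-like level from 252 to 292 CPM. Erythroid-like nuclei had 14.8 CPM from 6 UMIs and supporting-like nuclei 7.22 CPM from 8, and these 2 did not differ beyond counting error. Per 100 UMIs of Sertoli markers, *Fshr* gave 41.1 UMIs in Sertoli-like and 46.8 in endothelial-like nuclei. Sertoli-marker RNA was 112 CPM in endothelial-like nuclei, and its part in their *Fshr* level was not tested.

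*Crhr1*, the receptor through which corticotropin-releasing hormone drives ACTH release in the pituitary, shared the Leydig-like pattern of *Lhcgr*. It was detected at 235 CPM in Leydig-like nuclei (2049 UMIs, interval 225 to 245) and in 82.1% of them, or 37.8% after thinning. Progenitor-like nuclei had 1.92 CPM from 15 UMIs, a ratio of 122 (73.9 to 219) that was 26.6 with clusters from chromatin alone and 59.6 at resolution 0.6, and the ratio to the *Tacr3*-led cluster, at 2.12 CPM, was 111 (79.1 to 161). The next class again was pericyte-like, with 24.8 CPM and 17 UMIs, and the ratio of Leydig-like to it was 9.48 (5.91 to 16.3). Endothelial-like nuclei had 13.2 CPM, germ-like 7.90, erythroid-like 7.40, supporting-like 5.41 and Sertoli-like 4.44, and the remaining 3 classes were between 1.25 and 1.46. Pericyte-like and endothelial-like levels did not differ beyond counting error. Without nuclei over the doublet threshold the Leydig-like level was 270 CPM, the pericyte-like 4.04 and the germ-like 0.904, endothelial-like nuclei had no UMI, and the erythroid-like level went up to 14.53 CPM from 3 UMIs and was then second.

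*Mc2r*, the ACTH receptor, had its highest level in Leydig-like nuclei too. It was detected at 63.7 CPM (556 UMIs, interval 58.5 to 69.2) and in 37.9% of nuclei, or 10.8% after thinning. The ratio to progenitor-like nuclei, with 2.18 CPM, was 29.3 (18.1 to 50.6). It was 9.60 with clusters from chromatin alone, 16.2 with no doublets removed, 17.3 with stricter quality filters and 17.4 with the receptors left in the clustering. Mesonephric mesenchyme-like nuclei were next, with 13.7 CPM (43 UMIs in 33 nuclei, interval 9.91 to 18.5), and the ratio of Leydig-like to this class was 4.65 (3.41 to 6.50). Their level exceeded that of progenitor-like nuclei by a ratio of 6.29 (3.51 to 11.8) and that of germ-like nuclei by 4.26 (2.83 to 6.34).

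The mesonephric mesenchyme-like *Mc2r* level was 14.9 CPM without nuclei over the doublet threshold, whereas the germ-like level went from 3.22 to 0.452 CPM. Per 100 UMIs of Leydig markers there were 4.36 *Mc2r* UMIs in this class and 1.47 in Leydig-like nuclei. Pericyte-like nuclei, with 1.99, and erythroid-like nuclei, with 2.88, were also above the Leydig-like value, and without nuclei over the doublet threshold they had 12.1 and 9.69 CPM. Pericyte-like nuclei had 13.1 CPM from 9 UMIs and erythroid-like nuclei 9.87 from 4, and neither differed from the mesonephric mesenchyme-like level beyond counting error. The other classes had 0.890 CPM in surface epithelium-like, 1.31 in Sertoli-like, 1.46 in immune-like, 3.61 in supporting-like, 3.80 in the *Tacr3*-led and 4.69 in endothelial-like nuclei. Adrenal-type steroid enzymes, *Cyp11b1*, *Cyp11b2* and *Cyp21a1*, were summed beside the ACTH receptor. They gave 35.2 CPM in Leydig-like and 2.83 CPM in germ-like nuclei, with *Cyp11b2* at 0 in the Leydig-like class.

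**Figure D1:**
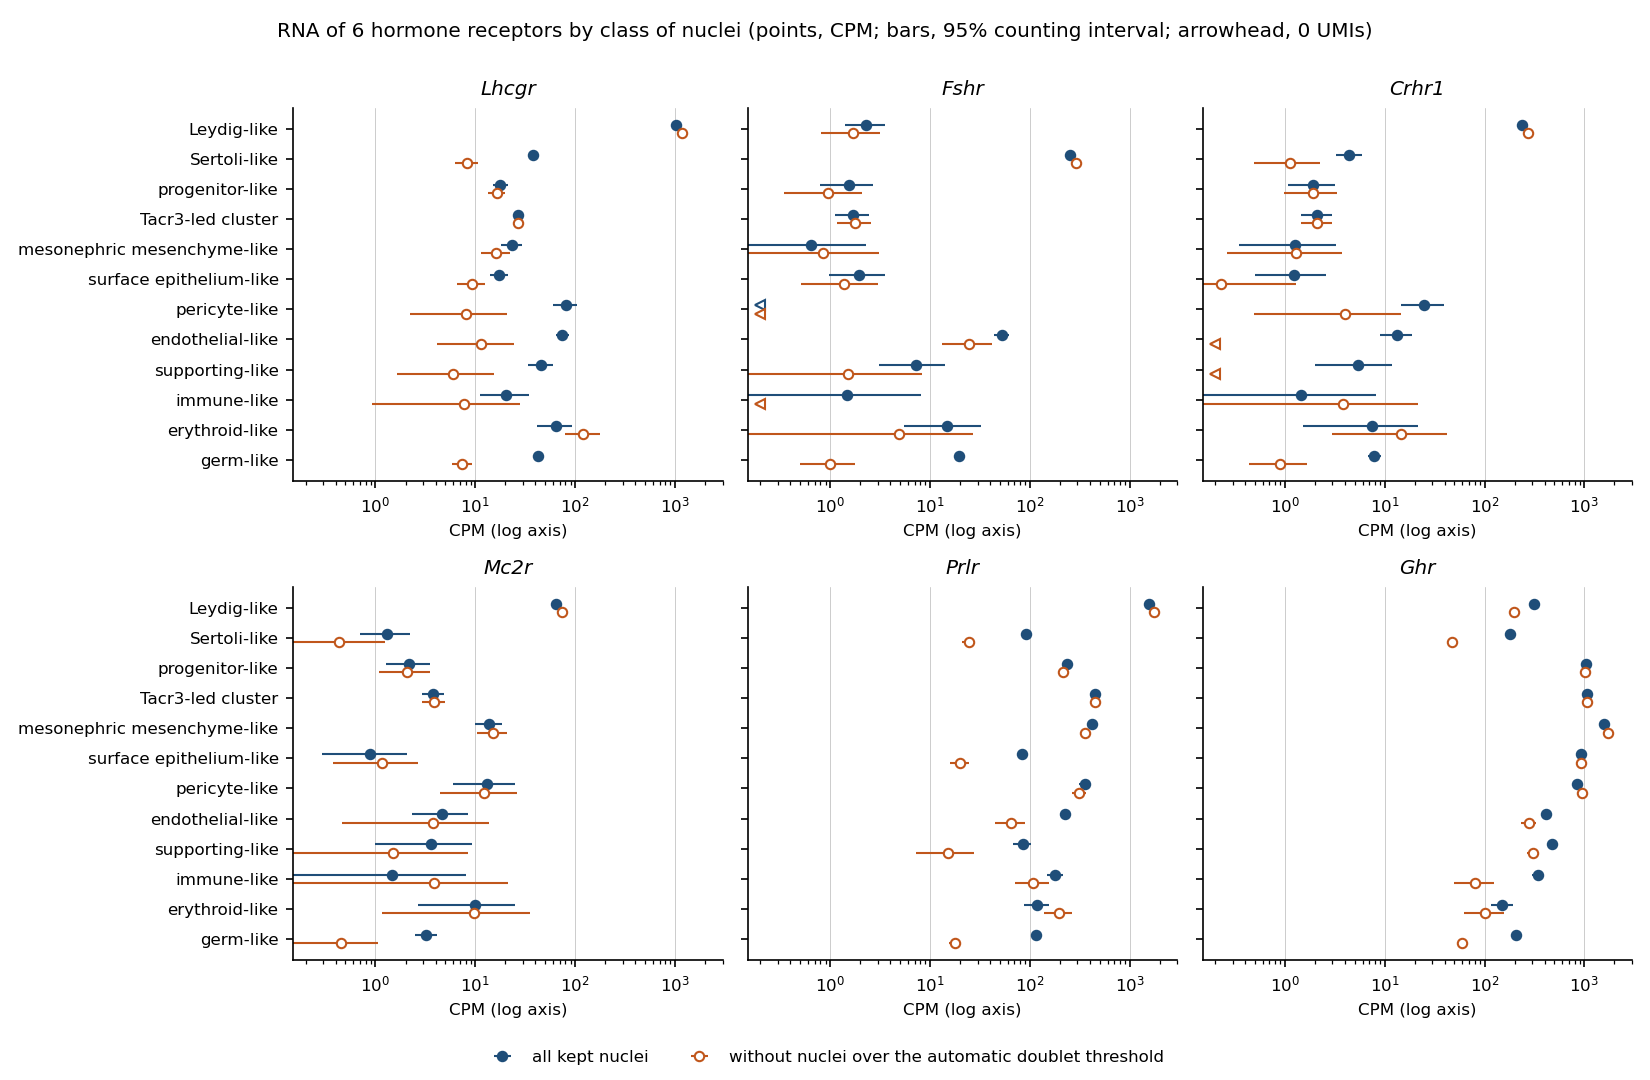
RNA level of each receptor in the 12 classes of nuclei, in CPM on a log axis, with filled points for all kept nuclei and open points without nuclei over the automatic doublet threshold. Bars are 95% counting intervals and arrowheads mark classes with 0 UMIs. *Lhcgr*, *Crhr1* and *Mc2r* stand apart in Leydig-like nuclei and *Fshr* in Sertoli-like nuclei, whereas *Prlr* and *Ghr* reach over 200 CPM in several classes.

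*Prlr* was also highest in Leydig-like nuclei but was far from limited to them. Leydig-like nuclei had 1568 CPM (13684 UMIs, interval 1542 to 1595) and 96.4% had a UMI. Among all kept nuclei the *Tacr3*-led cluster had 448 CPM, mesonephric mesenchyme-like nuclei 420, pericyte-like 355 and progenitor-like 237. Each neighbour in this order was separated from the next by the interval of their ratio, which counts UMIs and not nuclei. Of the 244 pericyte-like UMIs, 115 lay in 5 nuclei. Without nuclei over the doublet threshold the intervals of mesonephric mesenchyme-like (335 to 384 CPM) and pericyte-like nuclei (266 to 366) overlapped. The ratio of Leydig-like to the *Tacr3*-led cluster was 3.50 (3.40 to 3.61) and to progenitor-like nuclei 6.63 (6.31 to 6.96). The last ratio depended on how the classes were cut: it was 2.97 with no doublets removed, 3.01 with stricter quality filters, 3.05 with clusters from chromatin alone, 3.15 at resolution 0.6 and 3.16 with the receptors left in the clustering, all outside its counting interval. Endothelial-like nuclei followed with 225 CPM, immune-like with 180, erythroid-like with 118 and germ-like with 116, where progenitor-like and endothelial-like, and erythroid-like and germ-like, did not differ beyond counting error. Sertoli-like nuclei had 91.5 CPM, supporting-like 84.8 and surface epithelium-like 82.6, and these 3 did not differ between neighbours. Without nuclei over the doublet threshold the Leydig-like level was 1771 CPM, the *Tacr3*-led 454, the mesonephric mesenchyme-like 359, the progenitor-like 214, the erythroid-like 194, the endothelial-like 64.3, the Sertoli-like 24.6, the surface epithelium-like 20.02 and the germ-like 17.99. The intervals of progenitor-like (203 to 226) and endothelial-like nuclei (44.5 to 89.8) then no longer overlapped. Of all 528 endothelial-like UMIs, 348 lay in 5 nuclei, and of all 48 erythroid-like UMIs, 35 lay in a single nucleus. Relative to Leydig-marker UMIs, *Prlr* was higher in the interstitial classes than in Leydig-like nuclei. Per 100 marker UMIs it gave 36.3 UMIs in Leydig-like, 87.6 in progenitor-like and 123 in *Tacr3*-led nuclei.

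*Ghr* ran the other way and was highest in the mesenchymal classes. Mesonephric mesenchyme-like nuclei had 1584 CPM (4972 UMIs, interval 1540 to 1628), with a UMI in 98.5% of nuclei. The *Tacr3*-led cluster had 1058 CPM and progenitor-like nuclei 1031, and their ratio of 1.03 (0.999 to 1.05) did not separate them. Surface epithelium-like nuclei had 931 CPM, pericyte-like 851, supporting-like 474, endothelial-like 412 and immune-like 340. Leydig-like nuclei had 316 CPM (305 to 328), a ratio to progenitor-like of 0.307 (0.294 to 0.320) that was 0.184 when nuclei over the doublet threshold were removed before clustering. Germ-like nuclei had 205 CPM, Sertoli-like 181 and erythroid-like 150, and neither the last 2 nor immune-like and Leydig-like differed beyond counting error. Without nuclei over the doublet threshold the Leydig-like level was 198 CPM, the germ-like 59.1 and the Sertoli-like 47.5, whereas the mesonephric mesenchyme-like level was 1716. Immune-like nuclei then had 80.7 CPM and erythroid-like 102. The intervals of immune-like and Leydig-like then no longer overlapped, nor did those of Sertoli-like and erythroid-like. The Leydig-like, Sertoli-like and germ-like levels thus moved with the nuclei over the doublet threshold, whose part was not tested, while their place below the mesonephric mesenchyme-like, *Tacr3*-led and progenitor-like levels was the same with and without them.

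Over the 6 receptors, 4 had their highest level in Leydig-like nuclei, where 8.92% of 15216 genes had theirs. *Fshr* was highest in Sertoli-like nuclei, as were 8.18% of genes, and *Ghr* in mesonephric mesenchyme-like nuclei, as were 3.88%. Between Leydig-like and progenitor-like nuclei, 5 receptors had at least 100 UMIs in the pair. Of these, 4 were at least 2-fold higher in Leydig-like nuclei, beside 13.4% of all genes with as many UMIs, and *Ghr* was at least 2-fold lower, beside 14.3%. *Fshr*, with fewer UMIs in this pair, was not counted. A gene that reached 100 UMIs mainly through 1 class had to differ, so these counts describe the receptors and support nothing further. Between Sertoli-like and progenitor-like nuclei, *Fshr* and *Lhcgr* were at least 2-fold higher in Sertoli-like, beside 15.1% of genes, and *Prlr* and *Ghr* lower, beside 12.3%. The *Lhcgr* ratio of 2.13 (1.75 to 2.60) in that pair became 0.506 (0.360 to 0.704) without nuclei over the doublet threshold, so its direction was not stable.

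Single Leydig-like nuclei mostly carried several of these receptors at once. All 4 of *Lhcgr*, *Crhr1*, *Mc2r* and *Prlr* had a UMI in 253 of 788 nuclei, or 32.1% (28.9 to 35.5), and 3 of them in a further 397, or 50.4%. Only 1 nucleus had none. Among germ-like nuclei, which were deeper, 628 of 973 had none, or 64.5%, and 19 had all 4, or 1.95%. After thinning, *Lhcgr* and *Crhr1* were found together in 30.4% of Leydig-like nuclei (27.2 to 33.8), where the product of their separate shares was 29.5%. *Crhr1* and *Mc2r* were found together in 5.10% (3.66 to 6.87), beside a product of 4.10%. For all 6 pairs of these 4 receptors the product lay within the interval.

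Clustering more finely, at resolution 0.6, divided the *Tacr3*-led nuclei mainly between a low-cycling progenitor-like cluster of 1521 nuclei and a contractile-like cluster of 1059 nuclei. The former held 1468 *Tacr3*-led nuclei, 48 nuclei that had been Leydig-like and 5 that had been progenitor-like, and the latter held 1045 *Tacr3*-led nuclei, 11 progenitor-like and 3 mesonephric mesenchyme-like nuclei. *Mki67*, a proliferation marker, was at 89.3 CPM in the former and 634 CPM in the cycling progenitor-like cluster of 744 nuclei. *Prlr* told these 3 apart: it was at 707 CPM in low-cycling progenitor-like, 236 in cycling progenitor-like and 91.1 in contractile-like nuclei. The ratio of low-cycling progenitor-like to contractile-like was 7.76 (7.14 to 8.45), and Leydig-like nuclei exceeded the low-cycling progenitor-like cluster by 2.24 (2.18 to 2.31). *Lhcgr* had 53.8, 17.9 and 16.0 CPM in the same order, of which the last 2 had overlapping intervals, and a ratio of low-cycling progenitor-like to contractile-like of 3.36 (2.72 to 4.17). Of the 537 *Lhcgr* UMIs of the low-cycling cluster, 211 lay in the 48 nuclei that had been Leydig-like, and among *Tacr3*-led nuclei alone the 2 clusters had 33.8 and 16.4 CPM, a ratio of 2.07 (1.65 to 2.60). *Crhr1* had 5.61, 1.97 and 1.51 CPM, but 32 of the 56 UMIs behind the first value lay in the same 48 nuclei. Among *Tacr3*-led nuclei alone *Crhr1* was at 2.51 and 1.55 CPM, and the ratio of 1.62 (0.747 to 3.80) did not separate the clusters. For *Prlr* this restriction gave 688 and 92.7 CPM, a ratio of 7.42 (6.82 to 8.08). The restriction to *Tacr3*-led nuclei was chosen after seeing the data. *Ghr* was at 1074, 1034 and 1006 CPM, a ratio of low-cycling progenitor-like to contractile-like of 1.07 (1.03 to 1.10), and at 304 CPM in the Leydig-like cluster. *Mc2r* had 4.01, 2.11 and 3.63 CPM, and its ratio of low-cycling progenitor-like to contractile-like, 1.10 (0.649 to 1.91), did not separate them. *Fshr* was at 1.58 to 2.03 CPM in all 4 clusters.

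**Figure D2:**
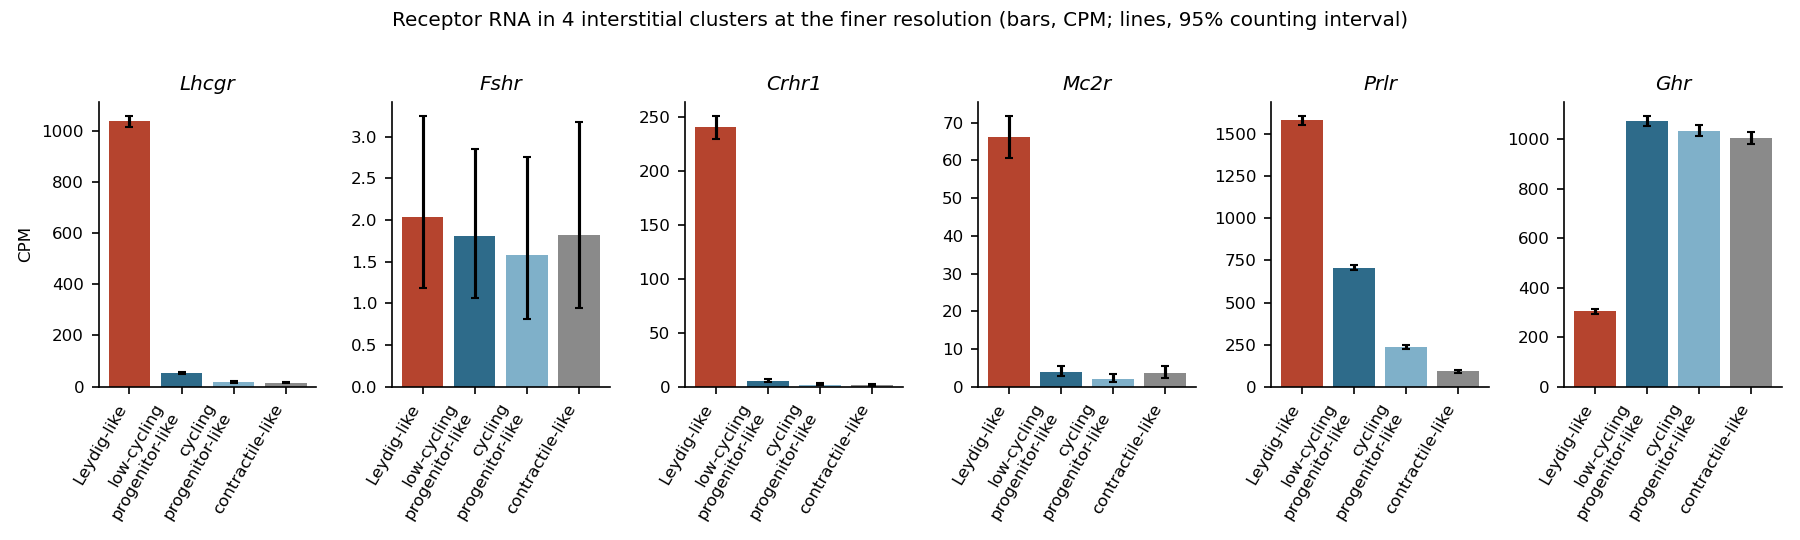
RNA level in CPM of each receptor in 4 interstitial clusters cut at the finer resolution, as bars from 0 with 95% counting intervals, each panel on its own scale. *Prlr* steps down from Leydig-like through low-cycling progenitor-like (707 CPM) to contractile-like nuclei (91.1 CPM), and *Ghr* is lowest in the Leydig-like cluster (304 CPM).

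The hormone genes listed beside these receptors were nearly absent from the RNA. None of the 10 listed hormone genes had 100 UMIs over Leydig-like and progenitor-like nuclei together. *Lhb*, *Fshb*, *Crh*, *Ucn*, *Ucn3* and *Prl* had no UMI in any kept nucleus, *Cga*, the common subunit of the glycoprotein hormones, had 1, and *Gh* had 2. *Pomc*, which encodes the precursor of ACTH, had 111 UMIs and its highest level in germ-like nuclei, 3.07 CPM, with 0.802 CPM in Leydig-like nuclei.

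Of 3 accessory and binding proteins, 1 passed the UMI minimum. *Mrap*, the accessory protein that brings MC2R to the cell surface, was at 13.9 CPM in Leydig-like and 0.512 CPM in progenitor-like nuclei, a ratio of 27.1 (10.3 to 101). *Mrap2* had 46 UMIs in all. Of 9 related receptors, 1 passed. *Oxtr*, the oxytocin receptor, was at 25.4 CPM in Leydig-like and 1.54 CPM in progenitor-like nuclei, a ratio of 16.6 (9.29 to 32.5). Among all genes that passed, 13.4% were at least 2-fold higher in Leydig-like nuclei. A gene that passed mainly through Leydig-like nuclei had to differ, so both ratios describe these genes only.

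Downstream of the receptors coupled to Gs, members of the cyclic AMP arm differed in both directions. Of 20 listed genes, 17 passed, 5 were at least 2-fold higher in Leydig-like than in progenitor-like nuclei and 4 at least 2-fold lower, beside 13.4% and 14.3% of all genes. Their median log2 ratio was -0.12, beside 0.099 over all 10542 genes. *Pde8b*, a phosphodiesterase that degrades cyclic AMP, was at 556 CPM in Leydig-like and 7.81 CPM in progenitor-like nuclei, a ratio of 71.2 (55.3 to 93.2). *Prkar2b*, a regulatory subunit of protein kinase A, was at 3924 and 85.0 CPM, a ratio of 46.1 (42.7 to 49.9). The second phosphodiesterase, *Pde8a*, had a ratio of 7.64, and the adenylyl cyclase *Adcy9* one of 7.35. Other cyclases were lower, *Adcy5* with a ratio of 0.169 and *Adcy7* with 0.189.

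The JAK-STAT arm, through which the prolactin and growth hormone receptors signal, was mostly within 2-fold. Of 10 listed genes 6 passed, with 1 higher and 1 lower, beside 13.4% and 14.3% of all genes, and a median log2 ratio of 0.48, beside 0.099 over all genes. *Socs2*, a feedback inhibitor induced by growth hormone, was at 82.6 CPM in Leydig-like and 30.7 CPM in progenitor-like nuclei, a ratio of 2.69, and was highest in Sertoli-like nuclei, at 258 CPM. *Igf1*, the growth factor that growth hormone induces in liver, was at 44.0 and 147 CPM, a ratio of 0.3004, and was highest in mesonephric mesenchyme-like nuclei, at 277 CPM, the class that also led for *Ghr*. *Jak2* and *Stat5b* were within 2-fold, at 98.1 and 132 CPM in Leydig-like and 80.2 and 84.8 CPM in progenitor-like nuclei.

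The genes with the profile most like each receptor were sought by Pearson's r of log2(CPM + 1) over the 11 named classes, among 10940 genes with at least 500 UMIs. All classes share a library and differ in depth, so these values are descriptions. For *Lhcgr* the closest were *Cyp11a1* (r = 0.984), which makes the first cut in cholesterol on the way to steroids, *Crhr1* (0.979), *4930511M06Rik* (0.979), *Lss* (0.977) and *Hsd3b1* (0.973). *Crhr1* returned *Lhcgr*, *Cyp11a1*, *Hsd3b1*, *4930511M06Rik* and *Lss*, at 0.954 to 0.979. For *Mc2r* the closest were *Chrm3* (0.958), a muscarinic receptor, *Fdps* (0.900), *Dnajc21* (0.895), *Cyp51* (0.887) and *Slc6a15* (0.879). *Fdps*, *Cyp51* and *Lss* are enzymes of cholesterol synthesis. For *Fshr* they were *Gm10863* (0.9503), *Hsd17b3* (0.934), the enzyme that makes testosterone from androstenedione, *Gm14344* (0.925), *Ralgapa2* (0.913) and *Pdpr* (0.907). For *Prlr* they were *Csrp2* (0.919), *Cped1* (0.914), *Pkdcc* (0.901), *Lrrn2* (0.877) and *Filip1l* (0.873). For *Ghr* they were *Ddr2* (0.977), a collagen receptor, *Cdh11* (0.975), *Mrc2* (0.974), *Dnm3os* (0.974) and *Gli2* (0.972). With a minimum of 2000 UMIs, 24 of these 30 entries were listed again. A higher minimum leaves r unchanged and only drops genes with fewer UMIs, so this is no check of stability.

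Chromatin near the genes was read from the ATAC library of the same nuclei, as FPM, fragments with a cut in a deposited peak scaled to all fragments of the class with the factor used for CPM. Coordinates are of GRCm38, the mouse build also called mm10, and distances run from the nearest annotated start to the middle of a peak, with positive values pointing into the gene. The peaks within 50 kb of a receptor start number 38, and 22 of them had at least 20 fragments in the compared classes. Near the 5 receptors other than *Fshr*, 21 peaks passed, of which 7 were at least 2-fold higher in Leydig-like than in progenitor-like nuclei and 3 lower. Among all 41301 peaks that passed, 9.69% were higher and 19.9% lower. For *Fshr* the only peak that passed was at least 2-fold higher in Sertoli-like than in progenitor-like nuclei, beside 16.6% of peaks higher and 23.9% lower in that pair. A peak that reached 20 fragments mainly through a single class had to differ, so these counts describe the peaks and support nothing further. Intervals are wide, since single peaks held 48 to 403 fragments over all kept nuclei.

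*Lhcgr* lies at chr17:88716481-88791990 on the minus strand, and the start of *Fshr*, at chr17:88984952-89200675 on the same strand, lies 409 kb from its own with no other protein-coding gene between them. Of 8 peaks near *Lhcgr*, 5 passed and 4 were higher in Leydig-like nuclei. The peak over its first exon, chr17:88791515-88792429, had 27 Leydig-like and 9 progenitor-like fragments, 8.42 and 1.76 FPM, a ratio of 4.77 (2.18 to 11.5). Upstream, the peak at -13.4 kb, chr17:88804963-88805824, had 26 and 2 fragments, a ratio of 20.7 (5.18 to 180). Without nuclei over the doublet threshold this ratio was 41.2 (6.60 to 1709), and relative to the low-cycling progenitor-like cluster of the finer resolution it was 3.04 (1.58 to 5.95). Its level was 8.10 FPM in Leydig-like and 1.78 in *Tacr3*-led nuclei, and 0.129 in germ-like nuclei. Farther out, the peak at -48.2 kb, chr17:88839785-88840624, had 37 and 5 fragments, a ratio of 11.8 (4.62 to 38.4). Against the low-cycling progenitor-like cluster this ratio was 7.98 (3.87 to 18.1) and that of the promoter peak 2.49 (1.34 to 4.65).

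The middle of the -13.4 kb peak is shown because it had the largest ratio of the *Lhcgr* peaks with at least 20 fragments, and the bases before the *Lhcgr* start because the promoter peak covers them. Sequences here are of GRCm38.p6, from RefSeq, on the strand of the gene, and those before a start precede the RefSeq start, which for *Lhcgr* lies upstream of the start that distances are counted from. Capitals mark matches, on either strand, to the NR5A1 motif AAGGNCA, the GATA motif AGATAA, the SOX motif AACAAAG, the E-box CACGTG, the CREB motif TGACGTCA and the STAT motif TTCNNNGAA. No marked matches overlap. A match describes the letters only.
Lhcgr -13.4 kb, chr17:88805244-88805543: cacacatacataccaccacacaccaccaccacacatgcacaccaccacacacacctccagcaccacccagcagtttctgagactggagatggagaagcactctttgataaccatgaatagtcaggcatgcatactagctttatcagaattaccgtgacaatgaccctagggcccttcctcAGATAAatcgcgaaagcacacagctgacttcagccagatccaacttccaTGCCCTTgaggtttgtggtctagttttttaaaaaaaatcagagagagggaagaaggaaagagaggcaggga
Lhcgr, 250 bases before the start, chr17:88792015-88792264: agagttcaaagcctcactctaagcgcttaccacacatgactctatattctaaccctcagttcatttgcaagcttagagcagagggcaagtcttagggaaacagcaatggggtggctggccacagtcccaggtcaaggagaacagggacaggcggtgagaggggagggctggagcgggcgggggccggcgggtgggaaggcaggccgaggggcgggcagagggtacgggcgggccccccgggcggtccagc
The -13.4 kb sequence held 1 NR5A1 and 1 GATA match, as did the middle of the -48.2 kb peak, and the *Lhcgr* promoter sequence held none of the 6 motifs. Over the 109183 deposited peaks whose sequence was read, 32.1% of the central 300 bases held the NR5A1 motif and 17.3% the GATA motif, and of 32851 RefSeq promoters 20.3% and 11.2% did.

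No peak was called within 1 kb of the *Fshr* start. Within this distance there were 10 Sertoli-like fragments, 2.32 FPM, and no progenitor-like fragment, with an interval up to 0.723 FPM. The peak in its intron at +22.7 kb, chr17:89177483-89178442, had 43 Sertoli-like fragments of 70 in all and 1 progenitor-like fragment. This was 9.98 against 0.196 FPM, a ratio of 50.9 (8.67 to 2058), with 2.18 FPM in Leydig-like and 1.55 in germ-like nuclei. The other peak near the gene, at -4.5 kb, had 12 Sertoli-like and no progenitor-like fragment and did not pass the minimum of 20. The intron peak and the bases before the start are shown as the open region that carried the difference and the promoter that had no peak.
Fshr +22.7 kb, chr17:89177813-89178112: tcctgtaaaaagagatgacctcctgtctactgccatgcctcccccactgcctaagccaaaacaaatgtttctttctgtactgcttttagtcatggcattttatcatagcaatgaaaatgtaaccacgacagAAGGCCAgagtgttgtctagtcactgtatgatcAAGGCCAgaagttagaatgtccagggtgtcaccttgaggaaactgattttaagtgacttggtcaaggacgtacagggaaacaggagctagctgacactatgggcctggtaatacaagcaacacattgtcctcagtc
Fshr, 250 bases before the start, chr17:89200676-89200925: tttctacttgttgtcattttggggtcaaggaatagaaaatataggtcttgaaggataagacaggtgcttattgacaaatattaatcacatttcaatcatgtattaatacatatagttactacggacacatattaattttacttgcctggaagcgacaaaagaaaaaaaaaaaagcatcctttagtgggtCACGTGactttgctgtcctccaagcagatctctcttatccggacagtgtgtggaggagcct
The intron sequence held 2 NR5A1 matches. The promoter held 1 E-box, 60 bases before the start, a motif found in 7.15% of promoters. The -4.5 kb peak held 1 match each of the NR5A1, GATA and SOX motifs, the last of which 7.38% of peaks held.

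*Crhr1*, at chr11:104132855-104175523 on the plus strand, had the peak with the most Leydig-like fragments of these 22. This intergenic peak at -2.1 kb had 56 Leydig-like fragments of 82 in all and 3 progenitor-like fragments. This was 17.5 against 0.588 FPM, a ratio of 29.7 (9.65 to 148). In Sertoli-like nuclei it was at 0.928, in the *Tacr3*-led cluster at 0.802 and in germ-like nuclei at 0.774 FPM. The promoter peaks within 1 kb held 27 and 20 fragments, a ratio of 2.15 (1.16 to 4.04), so the peak upstream differed more than the promoter did. The other 2 peaks that passed, at -17.97 kb and +38.8 kb, had ratios of 1.40 and 1.59 whose intervals held 1, though without nuclei over the doublet threshold the latter was 3.71 (1.12 to 14.1). The middle of the -2.1 kb peak held 4 matches, to the NR5A1 and STAT motifs, which 32.1% and 9.37% of peaks held. The *Crhr1* promoter sequence held none of the 6 motifs.

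*Prlr*, at chr15:10177238-10349180 on the plus strand, has 5 annotated starts spread over 46331 bases and overlaps *Gm21973* on the same strand, so reads in the overlap are uncertain. Its first promoter, open in most classes, did not separate Leydig-like from progenitor-like nuclei, with a ratio of 1.35 (0.546 to 3.26). Within 1 kb of any of the 5 starts, in peaks or not, there were 44 Leydig-like and 40 progenitor-like fragments. These were 13.7 FPM (9.96 to 18.4) and 7.84 FPM (5.60 to 10.7), and the intervals overlapped. The peaks that differed lay elsewhere, in both directions. An intron peak 2.0 kb before an internal start, chr15:10211026-10211918, had 25 Leydig-like and 11 progenitor-like fragments, a ratio of 3.62 (1.72 to 8.14), and was at 4.64 FPM in Sertoli-like nuclei, where *Prlr* RNA was low. The peak 42.5 kb before the first start, chr15:10134687-10135538, had 2 Leydig-like and 25 progenitor-like fragments, a ratio of 0.127 (0.0146 to 0.510). It was at 4.72 FPM in the *Tacr3*-led cluster and 4.27 in mesonephric mesenchyme-like nuclei, but at 0.516 in germ-like nuclei. At the finer resolution the intron peak had 2.43 times (1.02 to 6.68) as high an FPM in low-cycling progenitor-like as in contractile-like nuclei, which among *Tacr3*-led nuclei alone was 2.16 times with an interval that held 1 (0.883 to 6.004), and Leydig-like nuclei had 2.09 times (1.12 to 3.89) that of the low-cycling progenitor-like cluster.
Prlr intron, 2.0 kb before an internal start, chr15:10211322-10211621: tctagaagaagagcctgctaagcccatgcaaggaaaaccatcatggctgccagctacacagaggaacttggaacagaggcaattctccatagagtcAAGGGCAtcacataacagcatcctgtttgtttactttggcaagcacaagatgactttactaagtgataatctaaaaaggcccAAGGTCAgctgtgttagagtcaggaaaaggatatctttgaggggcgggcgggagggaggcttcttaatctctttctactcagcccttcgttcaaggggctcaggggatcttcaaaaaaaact
It is shown as the *Prlr* peak that was higher in Leydig-like nuclei, and it held 2 NR5A1 matches.

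*Ghr*, at chr15:3317760-3583492 on the minus strand, has 8 annotated starts over 111586 bases. Its 3 promoter peaks together did not differ beyond counting error, with 57 Leydig-like and 81 progenitor-like fragments and a ratio of 1.12 (0.783 to 1.59), whereas the RNA ratio was 0.307. Singly, the peaks at -0.181, +0.346 and +1.493 kb had ratios of 1.25, 0.663 and 1.59, whose intervals held 1. Without nuclei over the doublet threshold the +0.346 kb peak had a ratio of 0.295 (0.0563 to 0.986). The other 2 were then at 1.48 (0.828 to 2.61) and 2.36 (0.747 to 7.63). All 10 peaks near its starts overlap the gene, and of those with at least 20 fragments the 2 with the largest difference are given. The peak at +17.4 kb, chr15:3563992-3564804, had 2 and 27 fragments, a ratio of 0.118 (0.0136 to 0.469), and was at 5.33 FPM in mesonephric mesenchyme-like and 3.65 in *Tacr3*-led nuclei. The peak at +45.1 kb, chr15:3536280-3537121, had 5 and 21 fragments, a ratio of 0.379 (0.112 to 1.03) that became 0.115 (0.00275 to 0.725) without nuclei over the doublet threshold, and was highest in mesonephric mesenchyme-like nuclei, at 8.53 FPM. Against the low-cycling progenitor-like cluster the ratios of these 2 peaks were 0.207 (0.0236 to 0.843) and 0.877 (0.245 to 2.62). Neither the *Ghr* +17.4 kb nor the *Prlr* -42.5 kb peak had a Leydig-like fragment without nuclei over the doublet threshold.
Ghr +17.4 kb, chr15:3564248-3564547: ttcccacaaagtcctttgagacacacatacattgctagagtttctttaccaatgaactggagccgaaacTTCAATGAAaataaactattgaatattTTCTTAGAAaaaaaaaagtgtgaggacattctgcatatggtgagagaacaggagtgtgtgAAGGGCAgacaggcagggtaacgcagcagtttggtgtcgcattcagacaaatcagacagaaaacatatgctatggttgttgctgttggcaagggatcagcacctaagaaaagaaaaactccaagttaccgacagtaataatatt
It is shown as the *Ghr* peak with the smallest ratio among those with at least 20 fragments, and it held 1 NR5A1 match and 2 STAT matches, a motif that 9.37% of peaks held.

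*Mc2r*, at chr18:68406907-68429320 on the minus strand, had few fragments. The peak 1.4 kb inside the gene held 6 Leydig-like and 3 progenitor-like fragments, a ratio of 3.18 (0.680 to 19.7) that could not be told from 1 at this depth. Within 1 kb of the start, in peaks or not, there were 18 Leydig-like and 13 progenitor-like fragments. These were 5.61 FPM (3.32 to 8.87) and 2.55 FPM (1.36 to 4.36), and the intervals overlapped. At -42.8 kb, 14 and 7 fragments gave a ratio of 3.18 (1.20 to 9.31), which without nuclei over the doublet threshold was 2.36 with an interval that held 1 (0.747 to 7.63), and at -45.6 kb the ratio was 0.875 (0.379 to 1.92).

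**Figure D3:**
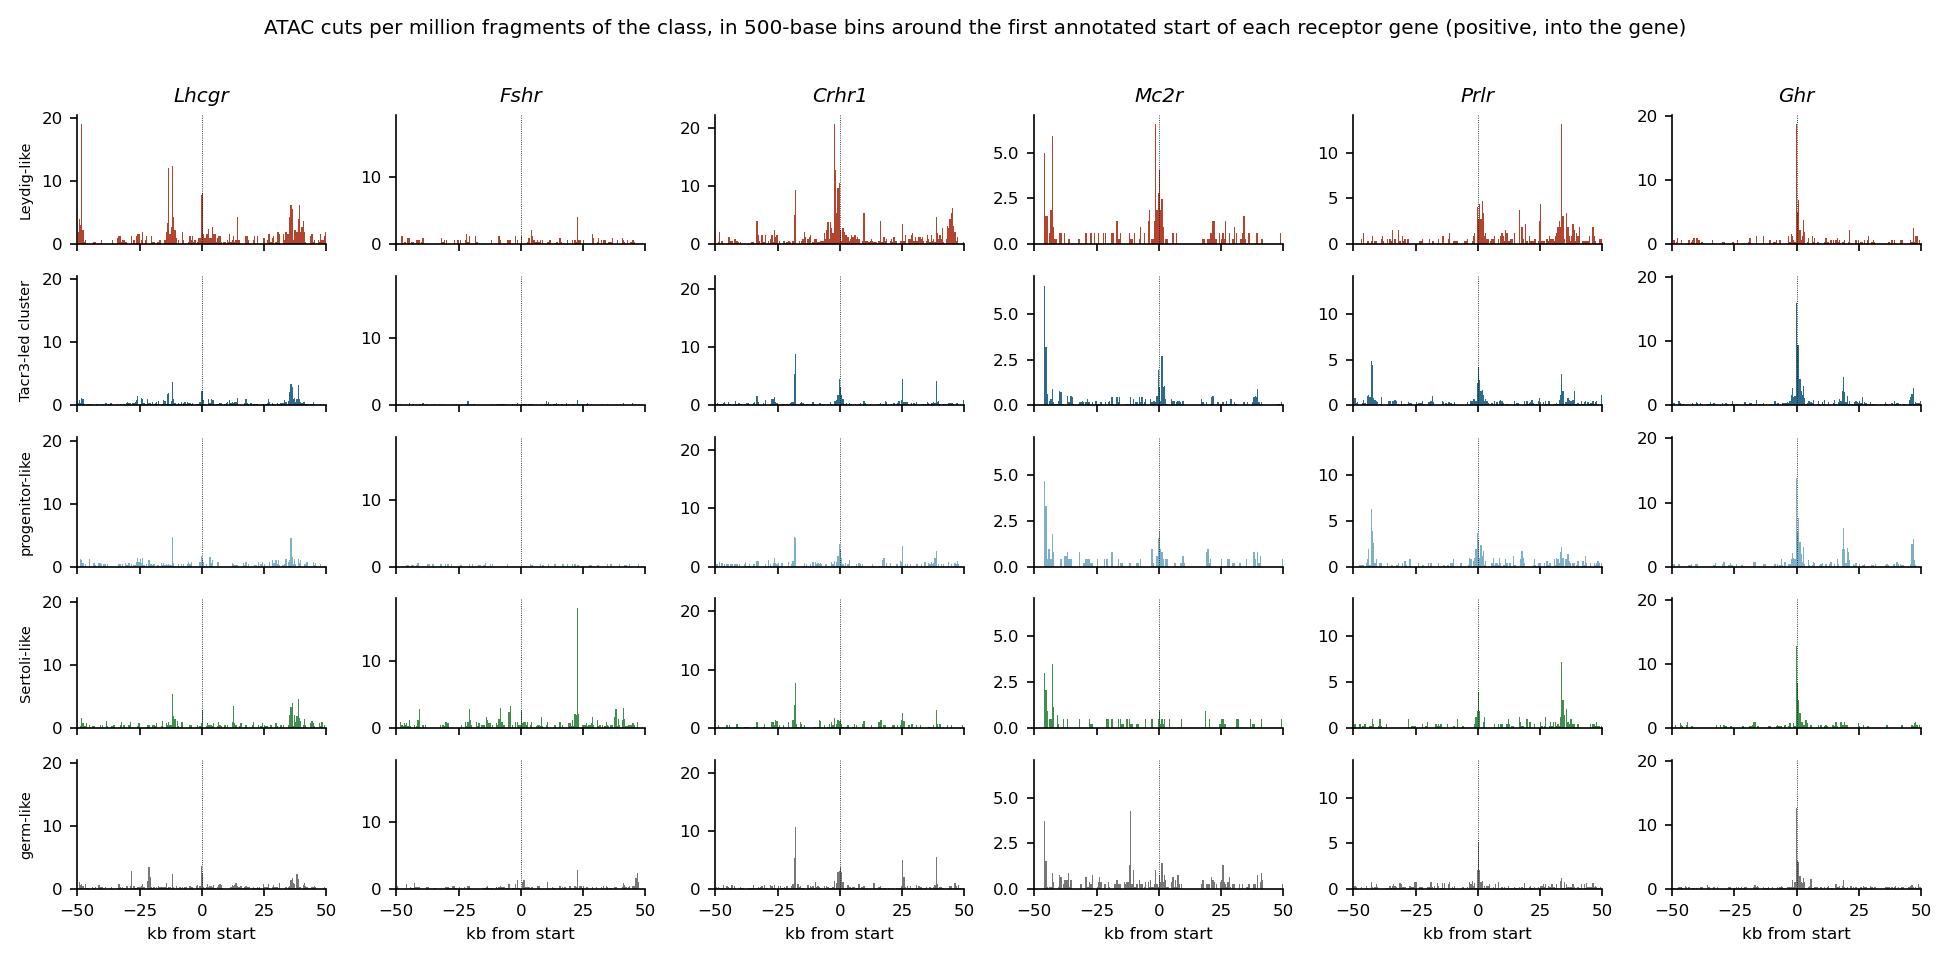
ATAC cuts scaled to all fragments of the class by the factor used for CPM, in bins around the first annotated start of each gene, for 5 classes (rows), with distance in kb on the x axis and positive values into the gene. Each gene has 1 scale for all rows. Leydig-like nuclei show cuts upstream of *Lhcgr* and *Crhr1* that the other rows lack or have at lower height, Sertoli-like nuclei show the *Fshr* intron peak, and the internal *Prlr* peak appears near 33 kb because distances are from its first start.

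**Figure D4:**
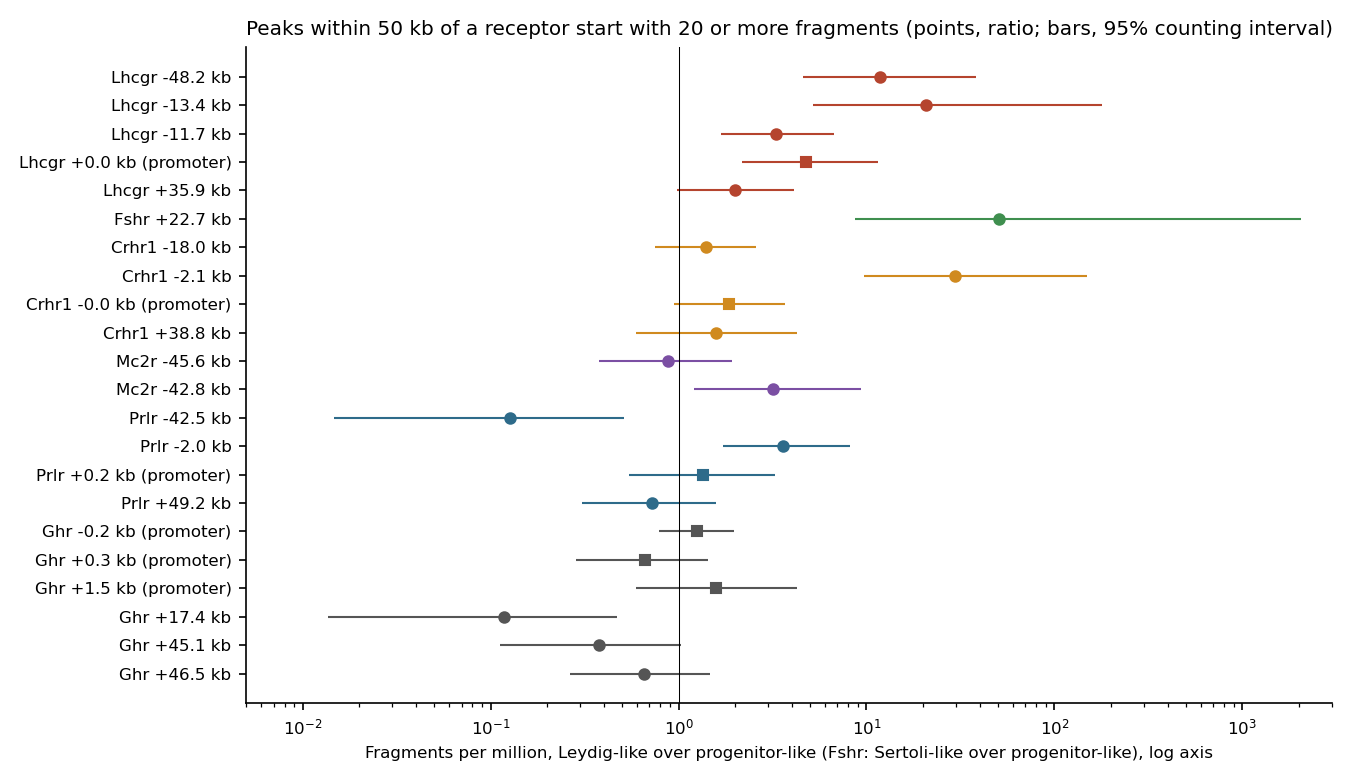
Ratio of FPM, on a log axis, for the 22 peaks with at least 20 fragments, Leydig-like over progenitor-like nuclei except *Fshr*, which is Sertoli-like over progenitor-like. Points are ratios, squares mark promoter peaks, and bars are 95% counting intervals. Labels give kb from the nearest annotated start. The *Fshr* intron peak (50.9) and the *Crhr1* -2.1 kb peak (29.7) have the largest ratios, and *Prlr* -42.5 kb (0.127) and *Ghr* +17.4 kb (0.118) the smallest.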

How the data were processed

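Both libraries were made by the authors with Cell Ranger ARC 2.0.1 on mm10, and the deposited matrix holds raw counts, UMIs per gene and cuts per peak called over all nuclei, after barcodes were called as nuclei and before quality filters. Here nuclei were kept at the study's quality thresholds other than its blacklist filter, which was not used here, and the 6.13% with the highest Scrublet scores were removed (scanpy 1.11.5). Seurat 5.3.0 (R 4.3.3) joined RNA and chromatin into clusters at resolution 0.3, which were named by markers. UMIs were summed per class as CPM with exact Poisson intervals, ratios have exact conditional binomial and shares Clopper-Pearson intervals, all at 95%. Peak values count fragments, read from the deposited fragment list, with scipy 1.17.1 and pandas 2.3.3. No ambient RNA was removed. The RNA is nuclear, with intron reads, so levels of different genes were not compared. Named were the 6 receptors, list members at least 2-fold apart with 100 UMIs or more, at most 6 a list, 5 genes most like each receptor, and per receptor the promoter peaks and 2 peaks with the largest ratio. Other peaks in the text were named after their values were seen. The members and lists were chosen with earlier results of these data known. Many class markers were chosen by the study on this library. Sequences are shown for some peaks, and others are not reported here. Ratios and intervals were tested on simulated counts. Alternatives changed doublet removal, filters, clustering, scaling and the germ-like background.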

Additional observations from a re-analysis of the deposited data

How the results depend on the processing

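The direction of each RNA ratio of Leydig-like to progenitor-like nuclei (Sertoli-like to progenitor-like for *Fshr*) held under all 68 alternatives computed over the 6 receptors, and 32 of the values lay within the interval of the reported ratio. For *Lhcgr*, reported as 57.2, the ratio was 32.5 with no doublets removed, 42.5 with all nuclei over the automatic Scrublet threshold removed before clustering, 28.6 with over 1000 genes and fragments at peaks required, 40.7 and 20.3 with clusters from RNA or chromatin alone, 27.0 at resolution 0.6, and 36.1 with the receptors left in the clustering. For *Prlr*, reported as 6.63, the same settings in this order gave 2.97, 3.70, 3.01, 5.65, 3.05, 3.15 and 3.16. The mean over nuclei of the CPM of each nucleus gave 7.50, unscaled UMIs per nucleus 7.17, and subtraction of the germ-like level 12.02. For *Ghr*, reported as 0.307, no doublet removal gave 0.341, removal at the automatic threshold 0.184, the stricter filter 0.374, resolution 0.6 gave 0.287, the mean over nuclei 0.268, unscaled UMIs 0.332, and germ-like subtraction 0.135. For *Mc2r*, reported as 29.3, the values outside the interval were 16.2 with no doublets removed, 17.3 with the stricter filter, 9.60 with chromatin alone and 17.4 with the receptors left in. *Crhr1*, reported as 122, gave 26.6 with chromatin alone and 59.6 at resolution 0.6, and *Fshr*, reported as 164, gave 36.1 with chromatin alone. Of settings chosen after seeing the data, leaving nuclei over the automatic threshold out of the reported classes gave 71.7 for *Lhcgr*, 8.28 for *Prlr* and 0.193 for *Ghr*, and naming clusters by marker score alone gave 42.7 for *Lhcgr* and 4.14 for *Prlr*. At resolution 0.6 the class named progenitor-like joined the cycling cluster of 744 nuclei with the low-cycling cluster of 1521. Of the latter, 96.5% came from the *Tacr3*-led cluster. Naming by marker score alone counted the *Tacr3*-led cluster as progenitor-like. Ratios under these settings thus compare other nuclei than the reported ratios do. The cause of the remaining differences was not tested. All 50 alternatives of the promoter ratios lay within the reported intervals, which were wide. The *Lhcgr* ratio ran from 2.50 to 5.01, the *Crhr1* ratio from 1.73 to 2.44 and the *Mc2r* ratio from 1.002 to 3.49. Those of *Prlr*, 0.806 to 1.41, and *Ghr*, 0.830 to 1.18, ran to both sides of 1, so their direction was not stable. Germ-like subtraction gave no value for *Lhcgr*, *Fshr*, *Crhr1* and *Mc2r*, whose germ-like level exceeded the progenitor-like one. The *Fshr* promoter has no peak and so no ratio. No paired analysis was possible because there is 1 library of each kind. Depth limits the peak ratios, since even the peaks that passed held few fragments in a class.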
